A study of Homo sapiens with 9 samples.

Results

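TC/AEW and TC/AVE are lines selected from TC-71, an established Ewing sarcoma cell line, until they resisted agents against the type 1 insulin-like growth factor receptor (IGF-1R). The pair was compared across all genes because its arrays carry a common date mark in their names, and the array of TC-71 sample 2 carries the same year. The pair made up 2 of the 6 samples of the series and was read on 4 of its 9 Affymetrix HG-U133 Plus 2 arrays. TC/AEW had been exposed to NVP-AEW541, a small molecule that inhibits the receptor's kinase, at concentrations rising to 5 µM. TC/AVE had been exposed to AVE1642, an antibody against the receptor, at concentrations rising to 10 µg/ml. Both selections lasted 6 months, and the lines and TC-71 were all kept in IMDM with 10% fetal bovine serum. One more line, TC/CP, was selected with the antibody figitumumab. It entered the filter on low values and the fit over all samples, and left the spread used there as it was. TC-71 was represented by 3 samples described as biological replicates, with 1 array each, and neither agent had been given to it. Each selected line was 1 culture read on 2 technical replicate arrays, so nothing measured how far a second culture of the same line would differ. Whether a line was 1 clone, and whether the agent was in the medium at harvest, is not given in the sources used here.

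IGF-1R is a receptor tyrosine kinase that binds the ligands IGF1 and IGF2 and signals through the adaptors IRS1 and IRS2 to the PI3K-AKT and RAS-ERK cascades. Ewing sarcoma is a tumour of bone and soft tissue driven in most cases by the fusion protein EWS-FLI1, a transcription factor that raises some genes and represses others, among them genes of mesenchymal cells. A kinase inhibitor acts inside the cell on the enzyme, and it can reach related kinases such as the insulin receptor. An antibody binds the receptor at the cell surface and can lead to its removal from there.

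Values are log2 expression levels, so a difference of 1 is a 2-fold difference. Levels under 5 are treated as near background, so differences measured from them are minimum sizes and carry no fold. Background may reach above 6 for some probe sets. HBB, a haemoglobin gene of red blood cells, read 5.95 in TC/AEW and 5.96 in TC/AVE, and CD79A, another blood and immune marker, 6.4 and 6.41. A fold from a level between 5 and 6.4 may for that reason also be too small. Array medians ran from 5.39 to 5.45. After the filter on low values, 14181 genes were compared. Replicate arrays differed by a median of 0.12 in TC/AEW and of 0.07 in TC/AVE, and no gene differed by 1 or more within either pair. Ewing sarcoma markers had a mean level of 10.21 in TC/AEW and of 10.22 in TC/AVE, within the range of 10.08 to 10.4 in the TC-71 samples. Single markers left their TC-71 range in both lines. LIPI read 5.82 in TC/AEW and 5.23 in TC/AVE against 6.48 to 7.45, and GLI1 7.14 and 7.13 against 7.42 to 8.27. BCL11B was higher, at 10.81 and 10.64 against 9.68 to 10.28, while NKX2-2 and PRKCB stayed within their range. CD99, the surface antigen used to recognise this tumour, read 12.92 and 12.98 on the TC/AEW arrays and 12.99 and 13.0 on the TC/AVE arrays. Of 8 blood and immune markers on the array 2 passed the filter, HBB and CD79A, and the others, PTPRC, CD14 and SPI1 among them, lay under 5 in both lines. Of 5 endothelial markers 3 passed, PECAM1 at 6.32 in TC/AEW and 6.27 in TC/AVE, VWF at 5.23 and 5.2, and TEK just under 5 in both, while CDH5 and KDR lay under 5. Of 6 epithelial markers 3 passed, KRT8 at 6.12 and 6.11, KRT18 at 5.88 and 5.79, and KRT5 at 5.35 and 5.28, while EPCAM, KRT19 and CDH1 lay under 5. Fibroblast markers averaged 7.16 in TC/AEW and 6.13 in TC/AVE, against 6.13, 6.75 and 6.62 in the TC-71 samples. Of these 7 markers 6 passed the filter, and COL1A2 did not, at 4.51 and 4.45.

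At least 2-fold higher in TC/AEW, with both of its arrays above both TC/AVE arrays, were 271 of the 14181 genes (1.91%). In the other direction 80 genes (0.564%) were at least 2-fold higher in TC/AVE, which makes 351 genes (2.48%) in all. The excess of genes higher in TC/AEW held at larger sizes, with 56 genes against 9 at 4-fold or more and 17 against 1 at 8-fold or more. At 16-fold or more there were 4 against 1. Over all genes the median difference was 0.01, and 51.4% of genes were higher in TC/AEW. The genes nearest the 2-fold line were IL13RA1 at 1.001 and ZNF30 at 0.993 on the side of TC/AEW, and LINC01116 at -1.003 and SLC15A2 at -0.997 on the other. In RNA from a whole culture, fewer cells expressing a gene and less RNA per cell cannot be told apart. Of the 271 genes, 88 lay under 5 in TC/AVE. Of the 80 genes, 9 lay under 5 in TC/AEW. The filter on low values was passed through TC/AEW alone by 14 of the 271 genes and through TC/AVE alone by 3 of the 80.

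**Figure D1:**
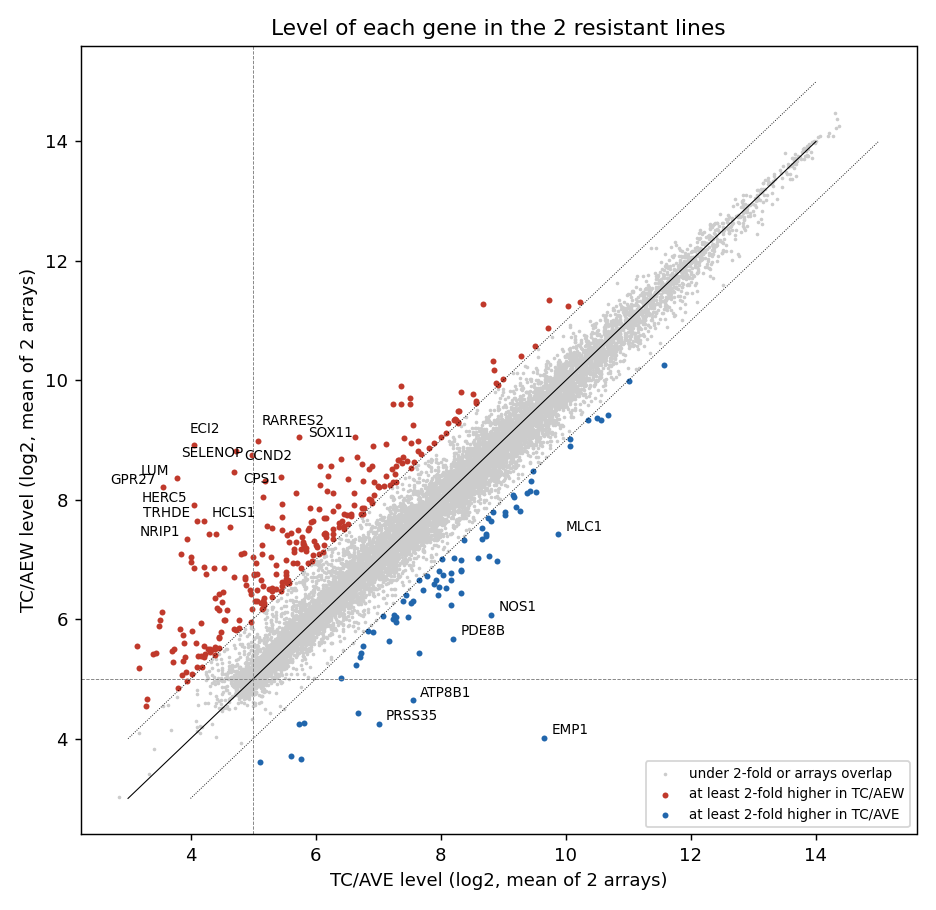
Level of each of the 14181 genes in TC/AVE (x axis) and TC/AEW (y axis), both log2 and means of 2 arrays. Red points are the 271 genes at least 2-fold higher in TC/AEW, blue points the 80 at least 2-fold higher in TC/AVE, dotted lines mark 2-fold and dashed lines the level of 5. The red points reach further from the diagonal than the blue ones, except EMP1 at the lower right.

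How firmly these differences can be stated depends on which spread they are set against. Set against the spread between arrays, 3107 genes (21.9%) passed an adjusted p of 0.05 in limma over the 4 arrays. Of these, 1650 (11.6%) were higher in TC/AEW and 1457 (10.3%) in TC/AVE. That test speaks of technical spread only, and with any 1 of the 4 arrays left out limma called 0 genes, with 2597 to 5180 at an unadjusted p under 0.05. Both arrays of one line lay beyond both of the other at 4188 genes (29.5%) on the side of TC/AEW and 4184 (29.5%) on that of TC/AVE. In limma over the 6 samples, where the spread comes from the 3 TC-71 samples, no gene passed (0.0%), and the lowest adjusted p was 0.267. At an unadjusted p under 0.05 there were 386 genes (2.72%), of which 279 (1.97%) were higher in TC/AEW and 107 (0.755%) in TC/AVE. On simulated data this sample test recovered 0% of changes of 1 or 2 on the log2 scale, 36% of changes of 3 and 54% of changes of 4. The simulation changed 50 genes at each size, more than the data held at 8-fold or more. Its rates for large changes may therefore be too high for these data. The TC-71 samples differed among themselves by a median of 0.2 to 0.33, and 242 to 1005 genes were 2-fold apart between pairs of them. TC/AEW and TC/AVE differed by a median of 0.15. Differences below are given with the standard error of the 6-sample fit, and where a gene is called higher or lower it is the measured level of these 2 cultures that is meant. Members of the gene lists below were chosen with earlier results of these data known. Their counts beside the share of all genes therefore describe the members and test nothing.

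TC-71 sample 2 served to ask which line stood away from the parental level. TC/AVE was at least 2-fold from it at 578 genes (4.08%), 202 above (1.42%) and 376 below (2.65%). TC/AEW was at least 2-fold from it at 276 genes (1.95%), 149 above (1.05%) and 127 below (0.896%). Among the 351 genes that separated the lines, TC/AVE alone stood 2-fold away from TC-71 sample 2 at 154 and TC/AEW alone at 67. At 13 genes both did, on opposite sides, at 22 both did on the same side, and at 95 neither reached 2-fold. The commonest kind was a gene higher in TC/AEW with TC/AVE away from sample 2, at 118 of 271 genes, against 49 with TC/AEW away from it. Set against all 3 TC-71 samples, both TC/AVE arrays lay below every TC-71 array at 193 of the 271 genes, and both TC/AEW arrays lay above every one at 149. The 271 genes were chosen for TC/AEW lying above TC/AVE, which favours both positions. No share over all genes is set beside these counts, so they do not show which line moved. The choice of reference matters here. With TC-71 sample 1 in place of sample 2, each line alone stood away at 109 genes.

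**Figure D2:**
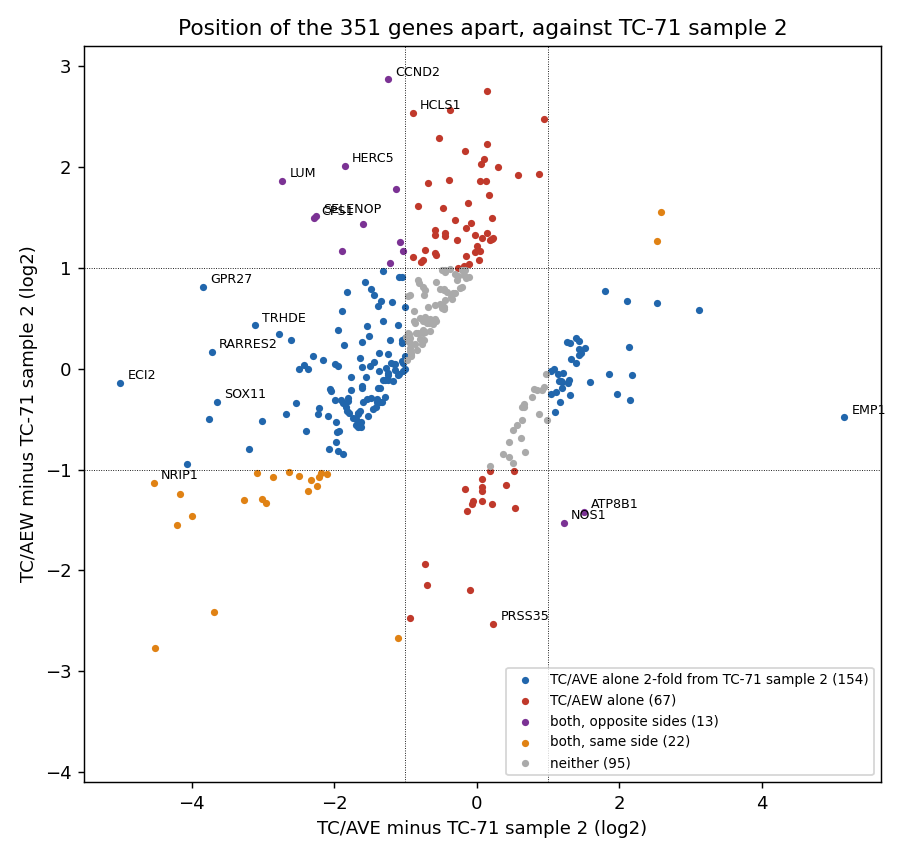
Each of the 351 genes placed by its log2 difference from TC-71 sample 2 in TC/AVE (x axis) and in TC/AEW (y axis), with dotted lines at 2-fold. Colours give which line stood at least 2-fold away, and the 154 blue points, TC/AVE alone, outnumber the 67 red points, TC/AEW alone. The empty diagonal band follows from the choice of genes that differ between the lines.

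Several leading genes stood in TC/AVE below every TC-71 sample and in TC/AEW within or nearer to the TC-71 range. ECI2, an enzyme of mitochondrial and peroxisomal fatty acid oxidation that shifts double bonds in unsaturated chains, read 8.78 and 9.05 on the TC/AEW arrays and 4.15 and 3.95 on the TC/AVE arrays. The TC-71 samples read 8.65, 9.05 and 8.76. TC/AEW thus lay within the TC-71 range while TC/AVE lay far below it, and the lines differed by 4.87 ± 0.31 (adjusted p = 0.267, limma over 6 samples). RARRES2, which encodes the secreted chemoattractant chemerin, showed the same order. It read 8.86 and 9.1 in TC/AEW, 5.43 and 4.73 in TC/AVE, and 8.75, 8.81 and 9.15 in TC-71, a difference of 3.9 ± 0.31 or 14.9-fold. TRHDE, a membrane peptidase that cleaves thyrotropin-releasing hormone, read 7.71 and 7.58 in TC/AEW and 3.79 and 4.44 in TC/AVE, with TC-71 between 6.79 and 7.61. SOX11, a transcription factor of neural progenitors, was highest in the parental cells. It read 9.0 and 9.11 in TC/AEW, 5.56 and 5.91 in TC/AVE, and 10.35, 9.38 and 10.33 in TC-71, so that both lines lay below every TC-71 sample and TC/AVE lay 3.32 ± 0.55 further down. NRIP1, a corepressor of nuclear receptors, read 7.21 and 7.47 in TC/AEW, 3.84 and 4.05 in TC/AVE, and 7.29, 8.47 and 7.97 in TC-71. Its TC/AEW arrays lay at the lower edge of the parental range and its TC/AVE arrays near background.

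GPR27, an orphan G protein-coupled receptor, read 8.16 and 8.27 in TC/AEW and 3.5 and 3.62 in TC/AVE. TC-71 samples spread from 5.47 to 7.4, so TC/AEW lay above and TC/AVE below all of them, and the difference was 4.65 ± 0.91. Its other probe set differed by 0.23 only. ENPEP, the membrane aminopeptidase that acts on angiotensin II, read 8.29 and 8.47 in TC/AEW, 5.48 and 5.42 in TC/AVE, and 9.42, 9.62 and 9.89 in TC-71. It was thus low in both lines and 7.61-fold lower in TC/AVE than in TC/AEW. LGALS1, which encodes the secreted lectin galectin-1, read 9.76 and 10.04 in TC/AEW, 7.35 and 7.39 in TC/AVE, and 10.58, 11.36 and 10.42 in TC-71. Again both lines lay below the parental samples, TC/AVE by more, with 2.53 ± 0.51 between the lines.

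Other leading genes stood in TC/AEW above every TC-71 sample. HCLS1, an actin-binding protein best known from blood cells and a relative of cortactin, read 7.63 and 7.68 in TC/AEW, 4.15 and 4.28 in TC/AVE, and 4.65, 5.11 and 4.94 in TC-71. WASF3, a subunit of the WAVE complex that starts branched actin networks, read 6.77 and 6.96 in TC/AEW, 3.98 and 4.12 in TC/AVE, and 4.12, 4.57 and 4.57 in TC-71. Both genes lay at or near background outside TC/AEW, and the lines differed by 3.44 ± 0.32 and 2.82 ± 0.34 (adjusted p = 0.45 and 0.53, limma over 6 samples). WASF3 passed the filter on low values through TC/AEW alone, so that its presence in the comparison was fixed by its level there. Among the 20 WAVE family genes and partners that passed, no other was 2-fold apart, against 1.91% and 0.564% over all genes in either direction. Their median difference was -0.05, and CTTN, cortactin itself, was -0.72. S100A6, a calcium-binding protein, read 6.72 and 7.01 in TC/AEW, 4.49 and 4.58 in TC/AVE, and 4.43, 4.7 and 5.6 in TC-71. CD9, a tetraspanin of the cell surface that likewise passed the filter through TC/AEW alone, read 6.49 and 6.88 in TC/AEW, 4.89 and 4.86 in TC/AVE, and 4.23, 4.82 and 4.51 in TC-71. FERMT3, a kindlin that activates integrins, read 7.83 and 7.91 in TC/AEW, 5.87 and 5.94 in TC/AVE, and 6.73, 6.49 and 6.64 in TC-71. DEPTOR, an inhibitory subunit of mTOR complexes, read 8.2 and 8.42 in TC/AEW, 6.81 and 6.72 in TC/AVE, and 5.38, 6.59 and 6.51 in TC-71. Unlike FERMT3, which lay below TC-71 in TC/AVE, DEPTOR in TC/AVE stood just above the TC-71 range.

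A few genes lay on opposite sides of TC-71 sample 2. CCND2, the cell cycle regulator cyclin D2, read 8.8 and 8.84 in TC/AEW, 4.7 and 4.74 in TC/AVE, and 4.97, 5.96 and 5.45 in TC-71. The difference was 4.1 ± 0.51 (adjusted p = 0.53, limma over 6 samples). Its other probe sets differed by 2.07 and 0.41 in the same direction. It was the only member 2-fold apart among 18 D cyclins and inhibitors of cyclin-dependent kinases, near the 2.48% of all genes. CCND1, the D cyclin prominent in Ewing sarcoma, read 11.4 in TC/AEW and 11.89 in TC/AVE. LUM, which encodes the matrix proteoglycan lumican, read 8.49 and 8.24 in TC/AEW, 3.59 and 3.96 in TC/AVE, and 3.55, 6.51 and 5.61 in TC-71. The parental samples themselves spread over more than the distance from TC/AVE to sample 2, and the difference of 4.59 had an error of 1.38. CPS1, the mitochondrial enzyme that opens the urea cycle, read 8.46 and 8.48 in TC/AEW, 4.87 and 4.53 in TC/AVE, and 5.67, 6.98 and 7.14 in TC-71. SELENOP, a secreted carrier of selenium, read 8.86 and 8.65 in TC/AEW, 4.78 and 5.19 in TC/AVE, and 5.82, 7.24 and 7.56 in TC-71. All 4 of these genes lay above all TC-71 samples in TC/AEW, and all but LUM lay below all of them on both TC/AVE arrays.

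Genes higher in TC/AVE were fewer, and EMP1 led them by a wide margin. EMP1, a small membrane protein first described in epithelia, read 3.91 and 4.11 in TC/AEW, 9.68 and 9.62 in TC/AVE, and 3.06, 4.49 and 3.94 in TC-71. The gene was near background in TC/AEW and in every TC-71 sample, and the lines differed by 5.64 ± 0.69 (adjusted p = 0.53, limma over 6 samples). All 3 of its probe sets showed the direction, at -5.64, -4.24 and -2.68. PDE8B, a phosphodiesterase that breaks down cAMP, read 5.65 and 5.68 in TC/AEW, 8.21 and 8.18 in TC/AVE, and 5.18, 5.08 and 5.07 in TC-71. MLC1, a membrane protein known from astrocytes, read 7.34 and 7.49 in TC/AEW, 9.88 and 9.89 in TC/AVE, and 8.07, 7.73 and 7.6 in TC-71. In both, TC/AVE lay above every TC-71 sample, 5.79-fold above TC/AEW for PDE8B and 5.52-fold for MLC1. PPP1R14C, an inhibitor of protein phosphatase 1, read 6.21 and 6.27 in TC/AEW, 8.14 and 8.18 in TC/AVE, and 6.0, 6.02 and 6.21 in TC-71. UTS2B, a peptide related to urotensin, read 5.27 and 5.6 in TC/AEW, 7.56 and 7.75 in TC/AVE, and 5.24, 5.68 and 5.2 in TC-71. LONRF2, a RING finger protein, rested near background outside TC/AVE, where it read 6.54 and 6.81. It passed the filter on low values through TC/AVE alone, so that its presence in the comparison was fixed by its level there. DPYD, the enzyme that degrades pyrimidines and the drug 5-fluorouracil, read 6.55 and 6.33 in TC/AEW, 8.24 and 8.39 in TC/AVE, and 4.5, 5.79 and 6.2 in TC-71. LTO1, a factor of ribosome biogenesis, read 6.93 and 7.19 in TC/AEW, 8.79 and 8.75 in TC/AVE, and 6.67, 7.19 and 6.9 in TC-71. For LTO1 the second probe set differed by -0.49.

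For PRSS35, a serine protease-like protein, the order was set by TC/AEW. It read 4.04 and 4.45 in TC/AEW, 6.82 and 7.2 in TC/AVE, and 6.32, 6.78 and 6.97 in TC-71. NOS1, the neuronal nitric oxide synthase, read 6.03 and 6.1 in TC/AEW, 8.74 and 8.89 in TC/AVE, and 7.0, 7.6 and 7.15 in TC-71, so the lines lay on either side of all parental samples. ATP8B1, a flippase that moves phospholipids across membranes, read 4.5 and 4.78 in TC/AEW, 7.52 and 7.59 in TC/AVE, and 4.83, 6.06 and 5.43 in TC-71, likewise on either side. Probe sets of these genes were uneven, with a second ATP8B1 probe set at -0.24 and NOS1 probe sets from -0.14 to -2.75. Of the 24 leading genes, 12 had more than 1 probe set past the filter. In all 12 every probe set had the same direction, and in 7 every one of them reached 2-fold.

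**Figure D3:**
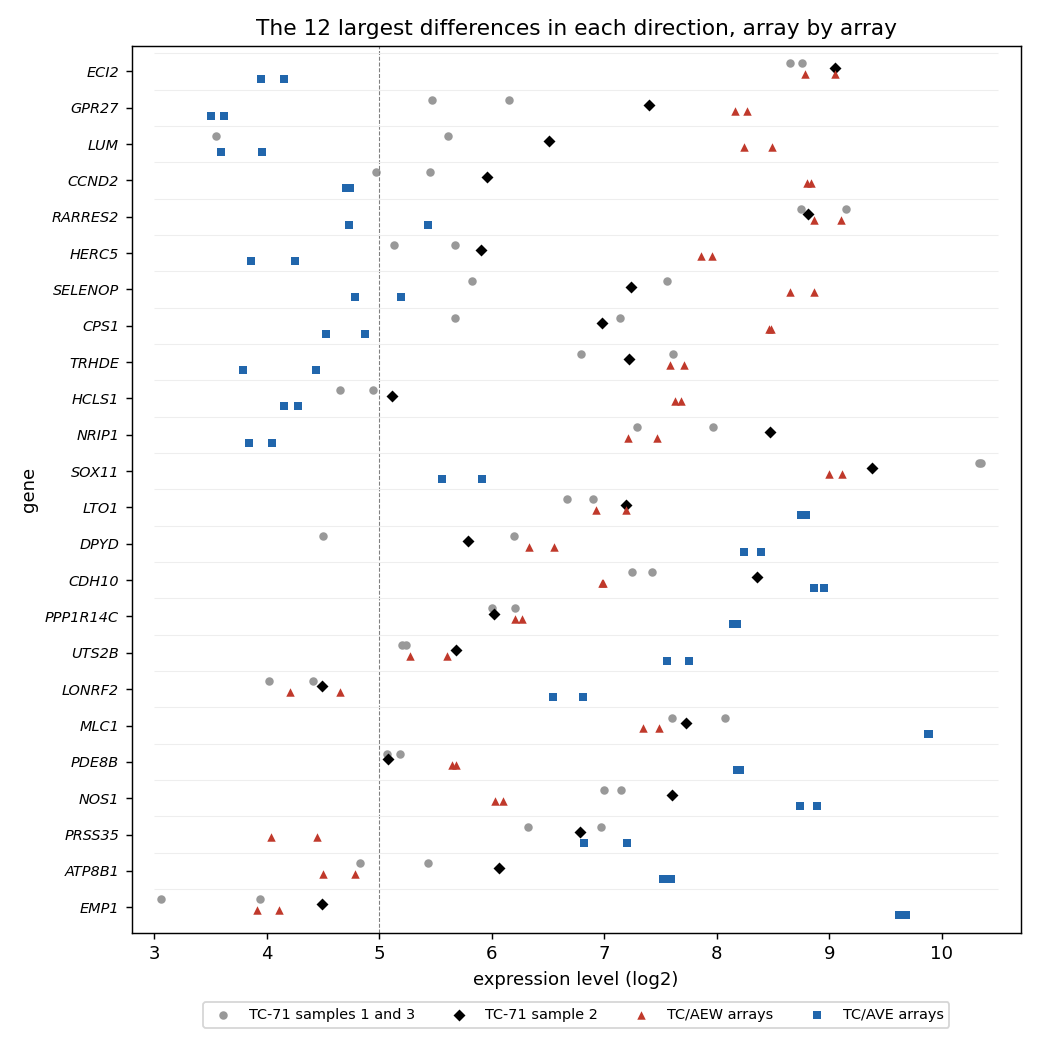
Expression level (log2, x axis) of the 12 genes with the largest differences in each direction (y axis), with a point for every array of TC-71, TC/AEW and TC/AVE and a dashed line at the level of 5. The points of TC/AEW and TC/AVE do not overlap for any of these genes, by the way they were chosen. For ECI2 and RARRES2 the TC/AEW arrays lie among the TC-71 samples, and for EMP1, PDE8B and PPP1R14C the TC/AVE arrays stand apart.

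Interferon response genes were mostly higher in TC/AEW. Interferons signal through receptors, kinases and STAT factors to a complex that binds a short repeat, the interferon-stimulated response element, upstream of target genes. That repeat is shown here because 4 of the 5 interferon genes that separated the lines and had a sequence carry it shortly before their start. Searched as GAAANNGAAA on both strands over the 250 bases before the first-listed start, in sequences from RefSeq on GRCh38.p14, it was found for 13 of 21 interferon response genes with a sequence (61.9%) and for 248 of 11312 genes compared (2.19%). Genes 2-fold higher in TC/AEW held it in 8 of 200 cases (4.0%), and all first-listed promoters in 839 of 27305 (3.07%). A match describes the letters only. The stretches lie on the forward strand, where the repeat reads TTTCNNTTTC, at chr10:89392487-89392536 for IFIT1, chr10:89327821-89327870 for IFIT3, chr1:78649751-78649788 for IFI44 and chr4:88456974-88457023 for HERC5. Capitals mark every match in the stretch shown, which for HERC5 are 2 overlapping ones. IFIT3 and HERC5 each have a further match outside it.
IFIT1: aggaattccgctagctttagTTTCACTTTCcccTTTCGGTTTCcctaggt
IFIT3: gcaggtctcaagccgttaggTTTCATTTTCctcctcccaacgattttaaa
IFI44: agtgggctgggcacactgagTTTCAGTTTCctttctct
HERC5: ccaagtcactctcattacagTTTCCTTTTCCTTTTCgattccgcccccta

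Of 42 interferon response genes with a probe set of their own, 27 passed the filter, 1 of them, IFI16, through TC/AEW alone. Higher in TC/AEW were 24 and lower 3, where 51.4% of all genes were higher. The list's median difference was 0.30 against 0.01 over all genes. At least 2-fold higher were 6, against a background of 1.91%, and none was 2-fold higher in TC/AVE. HERC5, a ligase that attaches the ubiquitin-like protein ISG15 to other proteins, read 7.86 and 7.96 in TC/AEW, 4.25 and 3.86 in TC/AVE, and 5.13, 5.9 and 5.67 in TC-71. IFIT2, which binds foreign RNA as do its relatives IFIT1 and IFIT3, read 8.06 and 8.24 in TC/AEW, 6.19 and 6.17 in TC/AVE, and 5.52, 6.12 and 5.33 in TC-71. IFIT3 read 7.73 and 7.95 in TC/AEW, 5.93 and 6.17 in TC/AVE, and 5.18, 6.49 and 5.81 in TC-71. For the IFIT genes, then, TC/AEW lay above all parental samples. TC/AVE lay within 0.5 of sample 2 for each of them, and IFIT1 differed between the lines by 1.35 ± 0.67. IFI44 differed in kind, since it read 8.5 and 8.7 in TC/AEW and 6.75 and 6.72 in TC/AVE while TC-71 read 8.06, 8.8 and 8.07. Here TC/AVE lay below the parental cells. IFI16, a sensor of DNA, read 5.63 and 5.22 in TC/AEW and under 4 on every other array of TC-71 and TC/AVE. Other members stood above TC-71 in both lines. IFITM3, which blocks virus entry, averaged 11.08 in TC/AEW and 10.87 in TC/AVE against 9.5 to 9.89 in TC-71, and ISG15 averaged 10.88 and 10.62 against 9.28 to 9.91. Set against TC-71 sample 2, the list's median was 0.48 in TC/AEW and 0.06 in TC/AVE. It was 0.91 and 0.51 against sample 1, and 0.59 and 0.24 against sample 3, so TC/AVE stood near the parental level only with sample 2 as reference. IFIT1, IFIT3, IFITM3 and ISG15 were named after their values were seen, and IFIT and IFITM genes have near relatives that probe sets may not separate fully.

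**Figure D4:**
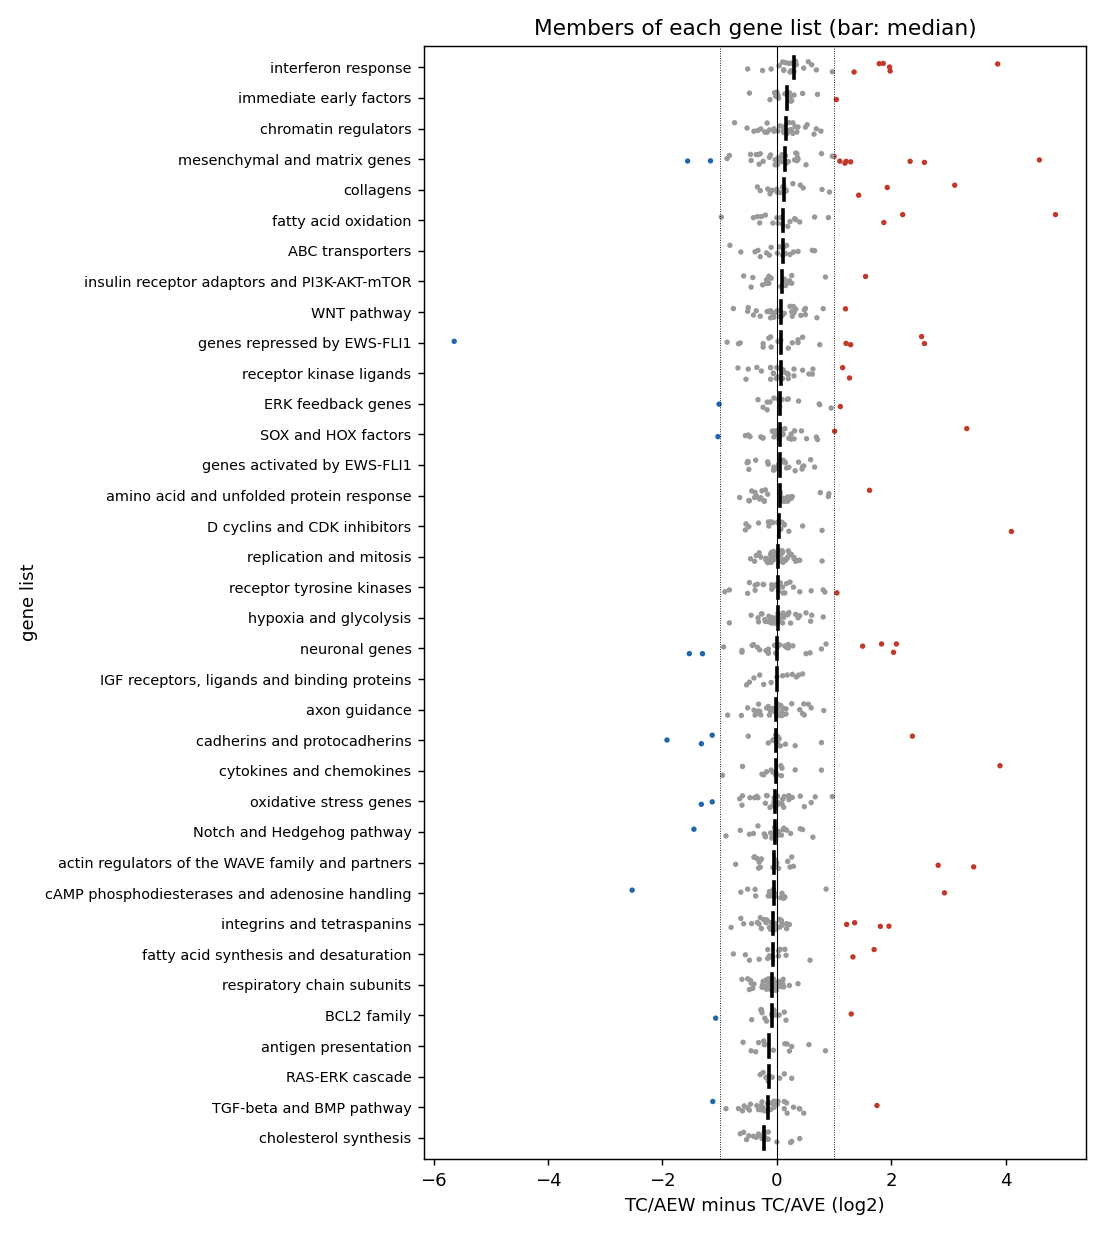
Difference between TC/AEW and TC/AVE (log2, x axis) of each measured member of 36 gene lists (y axis), with a bar at each list's median. Red and blue points are members at least 2-fold higher in TC/AEW or TC/AVE. Interferon response has the highest median at 0.30 and cholesterol synthesis the lowest at -0.22, and most members of every list lie within 2-fold.

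The receptor that both agents target differed little between the lines. IGF1R read 9.09 and 9.27 in TC/AEW, 9.53 and 9.63 in TC/AVE, and 9.25, 9.4 and 9.26 in TC-71. TC/AVE lay just above and TC/AEW near or below the parental samples, with -0.40 ± 0.26 between the lines (adjusted p = 1.0, limma over 6 samples), and its 5 probe sets gave differences from -0.40 to 0.2. INSR, the insulin receptor, read 6.54 and 6.78 in TC/AEW, 7.3 and 7.08 in TC/AVE, and 5.76, 6.47 and 6.29 in TC-71. Both lines thus read above every TC-71 sample. Of 13 measured receptors, ligands and binding proteins of the IGF family, 6 were higher and 7 lower in TC/AEW, none by 2-fold. The binding protein IGFBP5 was the widest after INSR at -0.48, and the ligand IGF1 stood at 0.45. IGF2R, which clears IGF2, differed by 0.34 ± 0.39, and the binding protein IGFBP3 by 0.27 ± 0.36. The adaptors IRS1 and IRS2 differed by 0.26 ± 0.61 and 0.20 ± 0.26. Among 24 adaptors and members of the PI3K, AKT and mTOR branch only DEPTOR was 2-fold apart, and among 9 members of the RAS-ERK cascade none was. Over all genes 2.48% were 2-fold apart, so the counts in this and the IGF list are near that share and show nothing about them.

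Genes that report ERK activity by feedback were split. DUSP6, a phosphatase that removes the activating phosphates of ERK in the cytoplasm, read 9.42 and 9.25 in TC/AEW, 8.25 and 8.19 in TC/AVE, and 8.07, 9.15 and 8.21 in TC-71. DUSP5, its nuclear counterpart, ran the other way with 6.54 and 6.77 in TC/AEW, 7.65 and 7.68 in TC/AVE, and 7.42, 6.86 and 7.53 in TC-71. TC/AEW was above the parental range for DUSP6 and below it for DUSP5. EPHA2, an ephrin receptor, differed by 0.95, and the median over 18 such genes was 0.06.

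Matrix genes held 8 members 2-fold higher in TC/AEW and 2 higher in TC/AVE among 44 measured, where 1.91% and 0.564% of all genes were. MMP1, a collagenase, read 5.87 and 6.36 in TC/AEW, 3.59 and 3.48 in TC/AVE, and 4.64, 5.36 and 5.97 in TC-71. TIMP3, an inhibitor of matrix proteases, read 8.5 and 8.53 in TC/AEW, 7.23 and 7.22 in TC/AVE, and 7.51, 8.01 and 8.14 in TC-71. For TIMP3 the lines lay on either side of the parental samples. TIMP4, of the same family, was lower in both lines than in TC-71 and lowest in TC/AEW, with 4.32 and 4.22 there, 5.82 on both TC/AVE arrays, and 6.38, 6.94 and 6.03 in TC-71. SPARC, a matrix protein that binds collagen, read 8.93 and 8.87 in TC/AEW, 10.08 and 10.04 in TC/AVE, and 9.33, 9.41 and 9.34 in TC-71, again on either side of TC-71. TWIST1, a transcription factor of mesenchymal cells, was 1.19 higher in TC/AEW, and the matricellular protein CCN1 was 1.21 higher. SPARC, TWIST1 and CCN1 were named after their values were seen. Of 21 measured collagens, 3 were 2-fold higher in TC/AEW, against the same 1.91%. COL3A1, a fibrillar collagen, read 8.15 and 8.47 in TC/AEW, 5.12 and 5.26 in TC/AVE, and 6.67, 7.97 and 7.08 in TC-71, 8.66-fold apart between the lines. Its other probe sets differed by less, at 2.45, 1.76 and 0.45. COL4A2 and COL4A1, which form the network of basement membranes and lie side by side in the genome, differed by 1.93 and 1.43. The second COL4A1 probe set differed by 0.73. LUM and COL3A1 are also the fibroblast markers that separated the lines. The other measured fibroblast markers COL1A1, DCN, THY1 and PDGFRB read 7.87, 7.26, 7.15 and 6.64 in TC/AEW and 7.59, 7.71, 7.5 and 6.68 in TC/AVE. The higher mean of the list in TC/AEW thus rested on LUM and COL3A1, and the part of other cell types in the matrix differences was not tested.

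Among genes known to be repressed by EWS-FLI1, 4 of 21 measured were 2-fold higher in TC/AEW and 1 in TC/AVE, beside 1.91% and 0.564% of all genes. The former were MMP1, LGALS1, TIMP3 and CCN1, and the latter was EMP1. The median over these genes was 0.07. They were put on the list with earlier results of these data known, so the counts support nothing about the list. Among 27 genes known to be activated by the fusion, none was 2-fold apart, and the median was 0.05. FLI1, whose probe sets can read the fusion transcript, differed by -0.11 ± 0.43.

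Neuronal genes differed in both directions. The neurofilament genes NEFL, NEFM and INA, whose proteins form the intermediate filaments of axons, were higher in TC/AEW by 2.09 ± 0.38, 1.83 ± 0.51 and 1.5 ± 0.31. NEFL read 9.56 and 9.65 in TC/AEW, 7.44 and 7.59 in TC/AVE, and 9.03, 9.37 and 9.67 in TC-71. For all 3 neurofilament genes TC/AVE lay below every parental sample. SYT4, a synaptotagmin of secretory vesicles, read 7.5 on both TC/AEW arrays and 5.67 and 5.25 in TC/AVE, with TC-71 at 5.87, 7.45 and 7.43. GAP43, a growth cone protein, ran the other way through a low level in TC/AEW, with 6.79 and 6.83 there, 8.28 and 8.39 in TC/AVE, and 8.54, 9.28 and 8.82 in TC-71. NRCAM, a neuronal adhesion molecule, was higher in TC/AVE by 1.3. INA and NRCAM were named after their values were seen. The median over 31 neuronal genes was 0.01.

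Of 18 measured cadherins and protocadherins, which join cells to each other, 3 were 2-fold higher in TC/AVE and 1 in TC/AEW, against 0.564% and 1.91% of all genes. Over the list 8 were higher and 10 lower in TC/AEW, with a median of -0.01. CDH10, a classical cadherin of the nervous system, read 6.98 and 6.99 in TC/AEW, 8.86 and 8.95 in TC/AVE, and 7.25, 8.36 and 7.42 in TC-71. CDH3, placental cadherin, read 5.9 and 6.01 in TC/AEW, 7.28 and 7.29 in TC/AVE, and 6.09, 6.09 and 6.28 in TC-71. The protocadherin PCDH8 opposed them, with 9.59 and 9.64 in TC/AEW, 7.15 and 7.33 in TC/AVE, and 8.81, 9.61 and 9.91 in TC-71. CDH3 stood above TC-71 in TC/AVE only, and PCDH8 stood below it in TC/AVE only. Of 32 integrins and tetraspanins 4 were 2-fold higher in TC/AEW, namely FERMT3, CD9, TSPAN8 and TSPAN7, while 20 were lower and the median was -0.06. Over all genes the share 2-fold higher was 1.91%, but CD9 and TSPAN7 had passed the filter through TC/AEW alone, so the count supports nothing about the list. TSPAN8 lay under 5 on every TC/AEW, TC/AVE and TC-71 array and passed through TC/CP at 5.01 and 5.13, and TSPAN7 differed by 1.22.

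Signalling genes of development gave single members. WNT5A, a ligand of non-canonical WNT signalling, read 8.28 and 8.14 in TC/AEW, 6.94 and 7.09 in TC/AVE, and 8.7, 8.5 and 8.97 in TC-71. BAMBI, a decoy receptor of the TGF-beta family, read 8.17 and 8.47 in TC/AEW, 9.39 and 9.49 in TC/AVE, and 8.9, 8.53 and 8.26 in TC-71. HEY1, a target of Notch signalling, read 6.42 and 6.65 in TC/AEW, 8.01 and 7.95 in TC/AVE, and 7.45, 7.47 and 8.08 in TC-71. WNT5A lay below all parental samples in both lines, by more in TC/AVE. HEY1 lay below all of them in TC/AEW only, and BAMBI was high in TC/AVE. SOX7, a transcription factor of endothelial development, stood above TC-71 in both lines, with 5.94 and 5.67 in TC/AEW, 6.82 and 6.86 in TC/AVE, and 4.01, 4.26 and 4.39 in TC-71. Of 30 measured ligands of receptor kinases 2 were 2-fold higher in TC/AEW, beside 1.91% of all genes, the growth factors MDK at 1.27 and KITLG at 1.15.

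Most metabolic genes differed little, with a few large exceptions. In fatty acid oxidation 14 of 21 measured genes were higher in TC/AEW, 3 of them by 2-fold, where 51.4% of all genes were higher and 1.91% were so by 2-fold. These were ECI2, the thiolase ACAA2 and CPT1C, a brain-type relative of the enzyme that loads fatty acids onto carnitine. ACAA2, which cuts acetyl-CoA from the shortened chain, read 9.67 and 9.75 in TC/AEW, 7.5 and 7.51 in TC/AVE, and 9.82, 10.05 and 9.83 in TC-71. Its other probe sets differed between the lines by 0.37 and 0.33 only. CPT1C read 7.42 and 7.4 in TC/AEW, 5.35 and 5.72 in TC/AVE, and 6.95, 7.15 and 6.84 in TC-71. CPT1A, the main form of the carnitine enzyme outside muscle and brain, ran the other way and was high in TC/AVE, with 8.47 and 8.75 in TC/AEW, 9.57 and 9.6 in TC/AVE, and 8.24 to 8.51 in TC-71. For CPT1A the other probe sets differed by -0.12 and -0.37. The elongases ELOVL2 and ELOVL7, which lengthen fatty acids, were higher in TC/AEW by 1.7 and 1.33 from levels under 5 in TC/AVE. ELOVL7 passed the filter on low values through TC/AEW alone, so that its presence in the comparison was fixed by its level there.

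Cholesterol synthesis genes were lower in TC/AEW than in TC/AVE at 15 of 19 members, against 6876 of 14181 over all genes. None was 2-fold apart, beside 2.48% of all genes, and their median difference was -0.22. Both lines read above TC-71 sample 2, by a median of 0.31 in TC/AEW and 0.46 in TC/AVE. HMGCS1, which makes the precursor of the pathway's controlled step, read 10.91 and 10.93 in TC/AEW, 11.46 and 11.36 in TC/AVE, and 9.77, 9.78 and 10.14 in TC-71. INSIG1, which holds the pathway's transcription factor in the endoplasmic reticulum, read 11.08 and 10.83 in TC/AEW, 11.43 and 11.54 in TC/AVE, and 9.4, 9.63 and 10.04 in TC-71. For both genes the arrays lay in the order TC-71, TC/AEW, TC/AVE without overlap. DHCR7, which makes the last step to cholesterol, differed by -0.64 in the same order. Respiratory chain subunits were lower in TC/AEW at 37 of 48 members by a median of -0.08, and none was 2-fold apart. The shares over all genes are those given above, and with 2.48% a count of none is near them in either list.

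Genes of the amino acid and unfolded protein response showed how much TC-71 sample 2 matters. CHAC1, a target of the factor ATF4 that degrades glutathione, read 9.92 and 10.15 in TC/AEW and 9.22 and 9.32 in TC/AVE, while the TC-71 samples read 7.83, 10.3 and 6.8. SESN2, a sensor of leucine, read 10.09 and 10.17 in TC/AEW, 9.26 and 9.18 in TC/AVE, and 7.65, 10.77 and 8.18 in TC-71. Sample 2 thus lay above both lines and samples 1 and 3 below them. DDIT4, an inhibitor of mTOR signalling, and TXNIP, an inhibitor of glucose uptake, had the same order with 12.83 and 10.59 in sample 2. Between the lines these genes were higher in TC/AEW, by 0.76 for CHAC1, 0.91 for SESN2, 0.85 for DDIT4 and 0.97 for TXNIP. The median over 33 genes of the list was 0.05. It lay at -0.26 for TC/AEW and -0.25 for TC/AVE against sample 2, but at 0.32 and 0.49 against sample 1.

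MT2A and MT1X, which encode metallothioneins, small proteins that bind zinc and copper, were at least 2-fold higher in TC/AVE. MT2A read 10.18 and 10.33 in TC/AEW, 11.57 and 11.58 in TC/AVE, and 11.08, 10.95 and 10.48 in TC-71. MT1X read 9.27 and 9.47 in TC/AEW, 10.51 and 10.49 in TC/AVE, and 9.77, 9.99 and 9.57 in TC-71. The lines lay on either side of all parental samples for both genes, which have near-identical relatives that probe sets may not separate. Their neighbours MT1E, MT1F, MT1G and MT1H differed in the same direction by less than 2-fold, at -0.61, -0.60, -0.47 and -0.84, and MT3 and MT4 in the other at 0.16 and 0.22. These neighbours were named after their values were seen. Among 39 genes of oxidative stress no other than MT2A and MT1X was 2-fold apart, against 0.564% of all genes 2-fold higher in TC/AVE. BCL2, which blocks cell death, read 6.56 and 6.87 in TC/AEW and 7.7 and 7.86 in TC/AVE, against 5.99 to 6.71 in TC-71. Its other probe sets differed between the lines by -0.44, -0.06 and -0.31. HRK, which opposes BCL2, was 1.3 higher in TC/AEW. Among 42 genes of replication and mitosis none was 2-fold apart, 23 were higher and 19 lower in TC/AEW, and the median was 0.02. Over all genes 2.48% were 2-fold apart and 51.4% higher in TC/AEW, so these counts are near the background. HLA-C and HLA-B, classical molecules of antigen presentation with near-identical relatives, were higher in both lines than in TC-71, at 10.21 and 10.24 for HLA-C in TC/AEW and 9.42 and 9.34 in TC/AVE, against 8.42 to 8.63.

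Differences were also followed along the chromosomes, in windows of 25 measured neighbours over the 14135 genes placed on GRCh38.p14. Of 13583 windows, the middle 95% had medians between -0.26 and 0.24. The highest lay on chromosome 6 from CEP85L to EPB41L2, where 24 of 25 genes were higher in TC/AEW with a median of 0.56. In it were 7 genes 2-fold apart, among them LAMA2, a laminin chain of muscle basement membranes, which read 7.45 and 7.56 in TC/AEW, 5.85 and 5.58 in TC/AVE, and 7.4, 8.12 and 7.71 in TC-71. Against TC-71 sample 2 the window stood at -0.54 in TC/AVE and -0.21 in TC/AEW. On chromosome 11 the window from MED17 to DYNC2H1 had 25 of 25 genes higher in TC/AEW, with a median of 0.47. TC/AVE stood at -0.55 from sample 2 there and TC/AEW at -0.07. MMP1 lies in this window, as does CFAP300, a cilium protein that was 1.64 higher in TC/AEW.

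The lowest windows were on chromosome 11 from RBM4 to CDK2AP2, at -0.48 with 20 of 25 genes lower in TC/AEW, and on chromosome 16 from FTO to HERPUD1, at -0.47 with 17 lower. RBM4, an RNA-binding protein, read 6.53 and 6.5 in TC/AEW, 8.04 and 8.13 in TC/AVE, and 6.58, 6.78 and 6.97 in TC-71. The chromosome 16 window includes the metallothionein cluster. Long stretches shared a direction. From STX5 to FGF4 on chromosome 11, 140 of 173 genes (80.9%) were higher in TC/AVE, which stood at a median of 0.34 from sample 2 while TC/AEW stood at 0.05. From USP35 to DIXDC1 on the same chromosome, 77 of 93 genes (82.8%) were higher in TC/AEW, and TC/AVE stood at -0.40 from sample 2 while TC/AEW stood at -0.07. From ZUP1 to TAB2 on chromosome 6, 71 of 85 genes (83.5%) were higher in TC/AEW. Further stretches ran from RAB4A to PGBD2 on chromosome 1, with 67 of 77 genes higher in TC/AEW, and from E2F4 to WDR59 on chromosome 16, with 77 of 90 higher in TC/AVE. Over all genes 51.4% were higher in TC/AEW. Which line stood away from TC-71 in a stretch depended on the sample used. Against sample 1, the stretch from STX5 to FGF4 stood at 0.09 in TC/AVE and -0.19 in TC/AEW, and against sample 3 at 0.25 and -0.02. The stretch from ZUP1 to TAB2 stood at -0.30 in TC/AVE and -0.04 in TC/AEW against sample 2, but at 0.06 and 0.26 against sample 1 and at -0.20 and 0.06 against sample 3. The stretch from E2F4 to WDR59 stood at 0.16 and -0.10 against sample 2, at 0.0 and -0.20 against sample 1 and at 0.01 and -0.22 against sample 3. In the stretches from USP35 to DIXDC1 and from RAB4A to PGBD2, TC/AVE was the line further from each TC-71 sample. It stood at -0.19 and -0.38 from samples 1 and 3 in the former, where TC/AEW stood at 0.07 and -0.05, and at -0.23, -0.22 and -0.33 from samples 1, 2 and 3 in the latter, where TC/AEW stood at 0.02, 0.05 and -0.04. Windows and stretches were picked for their size after the values were seen and carry no test.

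**Figure D5:**
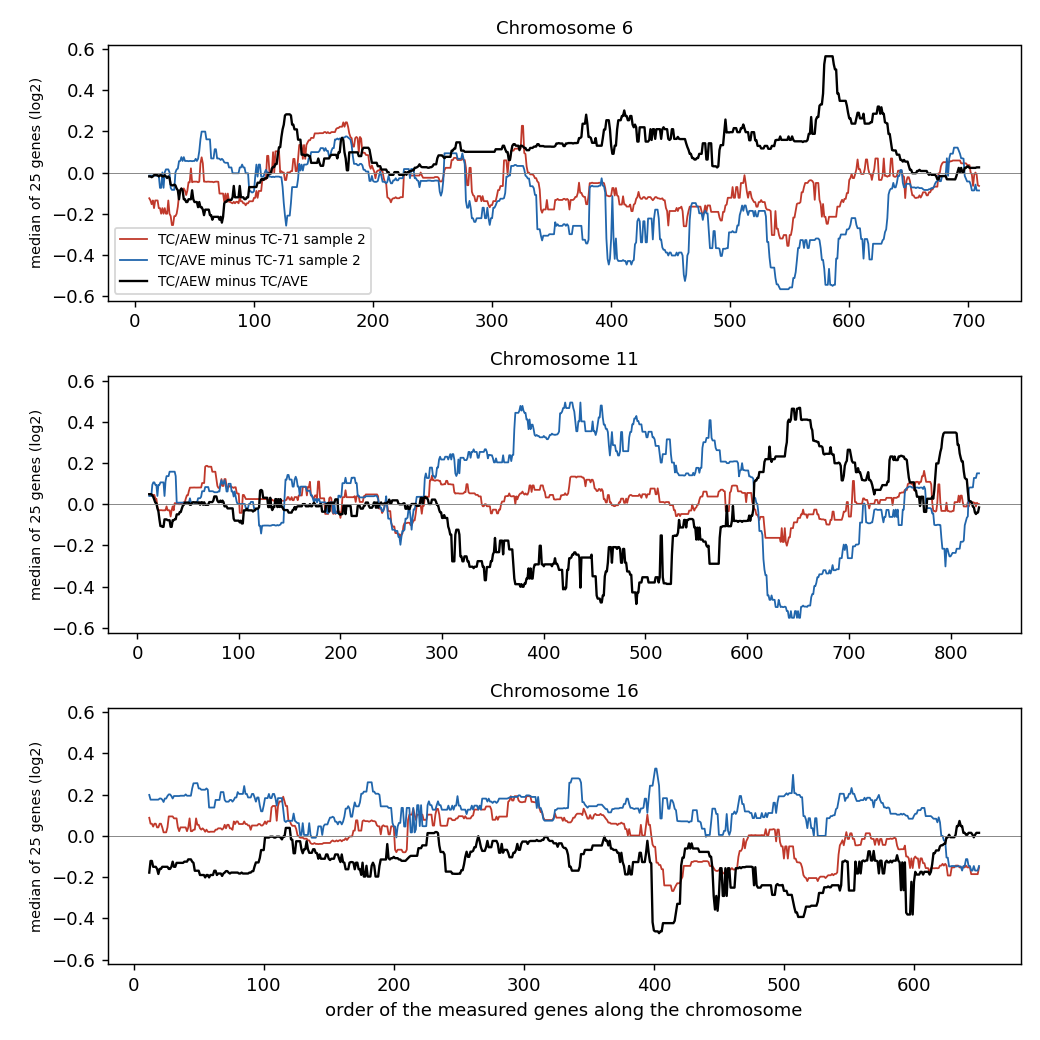
Median of 25 neighbouring measured genes (log2, y axis) in gene order along chromosomes 6, 11 and 16 (x axis), for TC/AEW minus TC/AVE (black), TC/AEW minus TC-71 sample 2 (red) and TC/AVE minus TC-71 sample 2 (blue). On chromosome 11 the blue line leaves 0 in long runs, reaching -0.55 at the window from MED17 to DYNC2H1, where the red line stands at -0.07.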

How the data were processed

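The authors deposited log2 expression levels per probe set of 9 Affymetrix HG-U133 Plus 2 arrays. The submitters' processing notes name RMA and affy, and give no version. RMA scales all arrays to 1 distribution, so a shift of most genes at once would not show. Control probe sets (62 of 54675) were left out, 41091 had 1 gene symbol in the platform annotation, and those with at least 2 of 9 arrays at 5 were kept (26952). A gene took its brightest probe set, others before _x_at ones, which gave 14181 genes. The 2 technical replicate arrays of a line were averaged into 1 sample. Differences were fitted with limma 3.58.1 in R 4.3.3 over 6 samples (2 residual degrees of freedom, from the TC-71 samples), and over the 4 arrays, two-sided and adjusted over all genes by Benjamini-Hochberg. Both fits were tested on simulated data. Since nothing replicates a line, p-values cover only the spread between these samples or arrays. Lists were described by counts and medians, and the members and lists were chosen with earlier results of these data known.

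Named were the 12 largest differences in each direction among genes with arrays apart and a level of at least 6 in the higher line, IGF1R, INSR, IGF2R, IGF1, IRS1, IRS2, IGFBP3, IGFBP5, FLI1 and CD99, and up to 4 members per list with the largest differences. Others are genes at a threshold, markers, or genes named after their values were seen. Alternatives changed the filter, the choice of probe set, the scaling, the arrays used, the reference sample and the variance model.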

Additional observations from a re-analysis of the deposited data

Results flagged for a closer look

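At 7 of the 24 leading genes the lines stood at least 2-fold on opposite sides of TC-71 sample 2, a difference that was not tested. Among all 351 genes that separated the lines 13 did so, and leading genes were picked for large differences, which favours it. The reference matters. With TC-71 sample 1 only HERC5 kept this position, and with sample 3 all but CCND2 and ATP8B1 did. The lower line lay under 5 for all but NOS1, so the other differences are minimum sizes. LUM stood at 1.86 in TC/AEW and -2.73 in TC/AVE, 4.59 apart. CCND2 stood at 2.87 and -1.24, 4.1 apart. HERC5 stood at 2.01 and -1.85, 3.86 apart. CPS1 stood at 1.49 and -2.28 and SELENOP at 1.51 and -2.26, each 3.77 apart. ATP8B1 and NOS1 ran the other way, with ATP8B1 at -1.42 and 1.5, a difference of -2.92, and NOS1 at -1.53 and 1.22, a difference of -2.75.

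Probe sets with no gene symbol or several were outside the comparisons of genes. Of 5977 kept, 85 were at least 2-fold apart with arrays that did not overlap, 39 higher in TC/AEW and 46 in TC/AVE. Among genes the counts were 271 and 80.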

How the results depend on the processing

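The count of genes called over the 6 samples was 0 under 14 of its 15 alternatives, and 582 when the 9 arrays were taken as samples, which counts technical replicates as cultures. Several of the 14 could hardly differ. Leaving out TC/CP could not change the fit, and leaving out 1 array of a line kept the spread between samples as it was. Leaving out a TC-71 sample left 1 residual degree of freedom. The count beyond array spread, 3107, fell to 0 when any 1 of the 4 arrays was left out (range 0 to 0), where 1 residual degree of freedom remained. It was 4300 with a replicate block, although the labels do not say that replicate numbers pair the arrays and the arrays' differences correlated at 0.2 over 2 pairs. A 3-fold threshold left 102 and 14 genes in place of 271 and 80. Without 1 array at a time these counts ranged from 252 to 299 and from 68 to 97. TC/AEW alone stood away from TC-71 at 67 genes, and at 109 with TC-71 sample 1 as reference; leaving out arrays gave 68 to 74, and 149 to 170 for TC/AVE alone. For the 24 leading genes no alternative reversed a difference, and 208 of 209 kept it at 1 or more, NOS1 with the median of its probe sets being the exception. Of 360 alternatives for list medians, 90 moved one by more than the spread between array pairs. Levels under 5 limit what could be measured at 88 of the 271 genes. PDGFRB, a fibroblast marker whose lines differed by -0.04, ranged from -0.11 to 0.03 without 1 array at a time.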
